A study of Mus musculus with 15 samples.

Results

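Spp2, Slc5a12, Adra1a and Nox4 are genes known for their expression in the early, convoluted stretch of the kidney's proximal tubule. They were picked by name as known early proximal genes, not by a threshold on these counts, though with earlier results of these data known. They are 4 of the 54752 genes in the count table. All 4 were found by Ensembl identifier in all 15 libraries. The question followed here is where along the nephron these transcripts lie and how they compare between mouse kidney tubules with and without claudin-10a.

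The knockout animals lack Cldn10a, the form of claudin-10 that the proximal tubule makes for its tight junctions, where it lets chloride and other anions pass between cells. Tubules were freed from mouse kidney slices with enzymes, and 10 proximal or about 20 distal convoluted tubules per kidney were pooled before RNA extraction. The groups were Cldn10a KO proximal tubule (n = 3, replicates 4, 5 and 7), WT proximal tubule (n = 4, replicates 1, 2, 3 and 6), Cldn10a KO distal convoluted tubule (n = 4, replicates 5 to 8) and WT distal convoluted tubule (n = 4, replicates 1 to 4). The labels name neither the strain, age and sex of the mice nor whether the deletion is confined to a cell type, and nothing in them ties each library to its own animal; the spread that p-values measure is the spread among these libraries and may be technical.

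Library totals ran from 28729339 to 51764746 counts, of which mitochondrial ribosomal RNA took 57.8 to 71.6% and nuclear protein-coding genes 8.02 to 19.7%. Cldn10 had 0 counts in each KO proximal library and 541 to 1514 counts in the WT proximal libraries, as the labels say. In distal tubule, where the gene was near 0 in both genotypes, its counts did not tell the labels apart, with 0, 12, 24 and 0 in KO distal replicates 5 to 8 and 8, 3, 4 and 22 in WT distal replicates 1 to 4. The tissue labels were checked with marker lists. The summed level of 6 distal convoluted tubule genes was 2.36 to 3.12 CPM (counts scaled to library size) in KO and 2.32 to 4.72 CPM in WT proximal libraries, against 1631 to 1911 CPM in KO and 1607 to 2089 CPM in WT distal libraries. In the distal libraries 5 thick ascending limb genes summed to 454 to 599 CPM in KO and 321 to 547 CPM in WT. There, 5 intercalated cell genes summed to 79.0 to 158 CPM in KO and 140 to 191 CPM in WT. The sum of 6 connecting tubule and principal cell genes was 69.3 to 143 CPM in KO and 107 to 152 CPM in WT. The part of such cells in distal levels was not tested. The labels call the dissected segment proximal as a whole, so an early position within it cannot be read from levels in these libraries.

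Filtered fluid enters the proximal tubule at its convoluted part, where most glucose, amino acids, phosphate, lactate and bicarbonate are taken back, and leaves it through the straight part, which carries other transporters. The 4 genes have unlike roles there. Spp2 encodes secreted phosphoprotein 24, a secreted protein with a cystatin-like fold that binds bone morphogenetic proteins. Slc5a12 encodes a low-affinity sodium-coupled transporter that takes up lactate and other monocarboxylates from the tubule fluid. Adra1a encodes the alpha-1A adrenergic receptor, which answers noradrenaline through Gq and phospholipase C. Nox4 encodes an NADPH oxidase, first described in kidney, that makes hydrogen peroxide and works with the membrane subunit encoded by Cyba.

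On GRCm38 with the GENCODE M21 annotation, Spp2 (ENSMUSG00000026295) spans chromosome 1, 88406961 to 88426438, and Slc5a12 (ENSMUSG00000041644) spans chromosome 2, 110597298 to 110647779. Adra1a (ENSMUSG00000045875) spans chromosome 14, 66635251 to 66771168, and Nox4 (ENSMUSG00000030562) spans chromosome 7, 87246096 to 87398710. All lie on the + strand, are protein-coding and overlap no other annotated gene. Their annotated exons cover 992 bases in Spp2, 4061 in Slc5a12, 8728 in Adra1a and 8471 in Nox4.

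The RefSeq promoter table (GRCm38.p6) held 2 of the 4 genes, Spp2 and Nox4. Only Spp2 is shown, since the Nox4 window before its RefSeq start lies inside the gene as annotated above. The stretch printed is chr1:88406760-88406960 on the + strand, 201 bases that end just before the first annotated base of the gene.
Spp2 promoter: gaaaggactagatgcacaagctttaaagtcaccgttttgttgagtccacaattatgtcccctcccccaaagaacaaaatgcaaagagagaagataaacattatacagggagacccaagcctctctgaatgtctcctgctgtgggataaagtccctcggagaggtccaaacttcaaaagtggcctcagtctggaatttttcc
The 250 bases before the RefSeq start were searched on both strands for CAAAGTCCA, a motif of the proximal tubule factor HNF4. GTTAAT, part of the motif of the factor HNF1, was searched too. Neither was found in Spp2 or Nox4, so no letter is in capitals. CAAAGTCCA occurs in 0.384% and GTTAAT in 6.43% of 32851 mouse promoters of that length. The absence says only that these letters are not in the window.

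**Figure D1:**
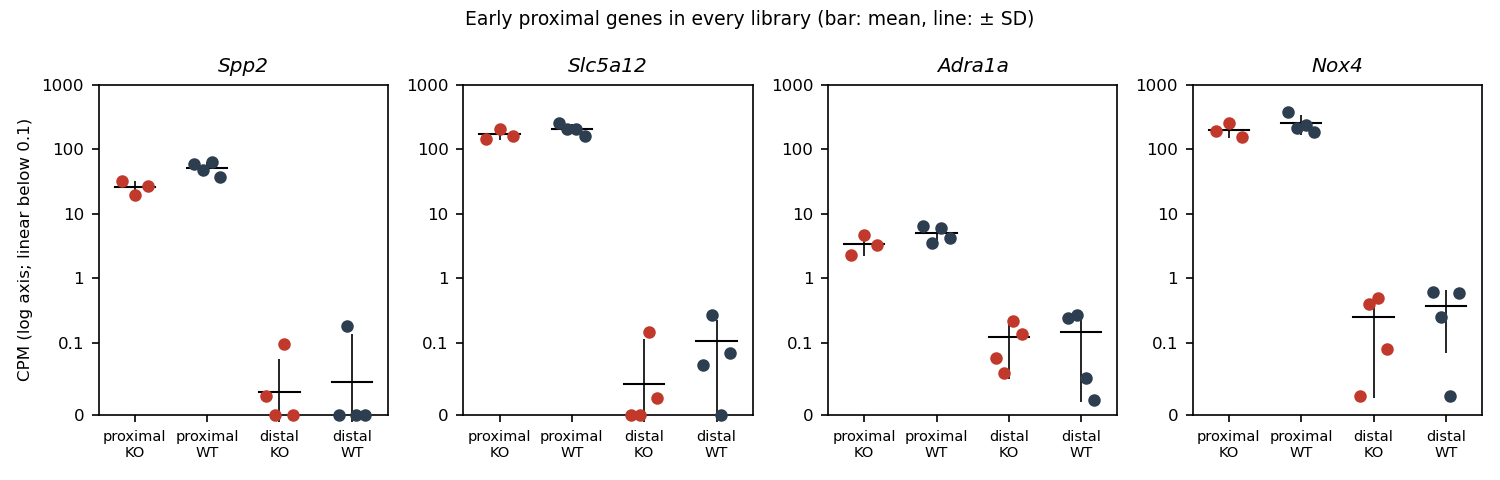
Level of each gene in every library as CPM (vertical axis, log scale above 0.1 and linear below), with KO left of WT in proximal and then distal tubule; points are libraries, horizontal bars group means and vertical lines ± SD, ending at 0 where the SD exceeds the mean. Spp2 separates the KO and WT proximal libraries (19.5 to 32.2 against 36.8 to 62.7 CPM), while the other genes overlap.

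All 4 transcripts were proximal, and they differed widely in abundance. Levels of different genes can be compared only per length, as CPM per kilobase of annotated exon, which depends on how much of that exon length the tubule's transcripts use. In KO proximal tubule the mean was 41.8 CPM per kilobase for Slc5a12, 26.5 for Spp2, 23.5 for Nox4 and 0.398 for Adra1a. In WT proximal tubule the mean was 51.9 CPM per kilobase for Spp2, 51.0 for Slc5a12, 29.8 for Nox4 and 0.576 for Adra1a. The libraries' ranges of Slc5a12 and Spp2 did not overlap in KO (36.0 to 50.1 against 19.7 to 32.5 CPM per kilobase) and overlapped in WT. Spp2 and Nox4 overlapped in KO, Slc5a12 and Nox4 overlapped in WT, and Adra1a lay below the others in every proximal library.

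Spp2, the secreted protein of the set, had 32.2, 19.5 and 27.2 CPM in KO proximal replicates 4, 5 and 7, against 58.1, 48.4, 62.7 and 36.8 CPM in WT proximal replicates 1, 2, 3 and 6. Every KO library lay below every WT library, with KO replicate 5 lowest of all and WT replicate 6 closest to the KO libraries. The means were 26.3 ± 6.39 CPM in KO and 51.5 ± 11.5 CPM in WT (SD, n = 3 and 4), a limma log2 difference (KO minus WT) of −0.98 ± 0.216 (SE; 95% interval −1.45 to −0.52). Its unadjusted p was 0.00051, place 56 among 13229 genes, and its Benjamini-Hochberg adjusted p was 0.120, which missed the 0.05 threshold. By exact permutation (two-sided, 35 arrangements) p was 0.0571, the smallest these group sizes allow. In the authors' deposited table Spp2 has a log2 fold change of −0.98 with an adjusted p of 0.00364, where 0.922% of 14748 genes pass. The call thus depends on the fit, and so it did among alternative settings: Spp2 passed with no low-count filter (adjusted p 0.0325 by limma) and when all 15 libraries shared 1 limma fit (0.0113). In whole-tubule RNA, fewer cells of a type and less RNA per cell cannot be told apart.

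Other secreted proteins with a cystatin fold and genes of the bone morphogenetic protein pathway were read beside Spp2. Of 11, 7 passed the filter and 0 were called by limma, with 4 above 0 and 3 below 0 and a median log2 difference of 0.14, against −0.01 for all 13229 genes. Those with the smallest p were Hrg, a plasma glycoprotein (1.29, adjusted p 0.691 by limma), Bmpr2 and Bmp4, a receptor and a ligand of the pathway (0.24 and 0.20), and Cst3, which encodes cystatin C (−0.22). None of these missed differences shows equal levels; the interval of Cst3, for one, ran from −0.80 to 0.36.

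Slc5a12, the lactate transporter, had 146, 203 and 159 CPM in KO proximal replicates 4, 5 and 7, against 253, 207, 206 and 162 CPM in WT replicates 1, 2, 3 and 6. The groups overlapped: KO replicate 5 stood close to WT replicates 2 and 3, and WT replicate 6 close to the lower KO libraries. The means of 170 ± 30.0 CPM in KO and 207 ± 37.2 CPM in WT gave a limma log2 difference of −0.29 ± 0.175 (SE; 95% interval −0.67 to 0.08; adjusted p 0.761), and the exact permutation p was 0.114.

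Its relative Slc5a8, a high-affinity carrier of the same substrates known from the later proximal tubule, pointed the other way. Slc5a8 averaged 61.0 ± 16.7 CPM in KO and 25.8 ± 18.4 CPM in WT proximal tubule (SD, n = 3 and 4), with ranges of 42.5 to 75.2 and 3.79 to 47.6 CPM that overlapped. Its limma log2 difference of 1.68 ± 0.594 had an adjusted p of 0.510. Of 11 genes of monocarboxylate transport and use, 9 passed the filter and 0 were called, with 4 above 0 and 5 below 0 and a median of −0.09. Ldhb, a lactate dehydrogenase subunit, had a log2 difference of −0.34, Bsg, a partner of monocarboxylate carriers, −0.20, and the carrier Slc16a4 0.09 (adjusted p 0.671, 0.882 and 0.927 by limma).

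Adra1a, the receptor, had 2.31, 4.77 and 3.33 CPM in KO proximal replicates 4, 5 and 7 (83 to 192 counts), against 6.38, 3.50, 6.03 and 4.21 CPM in WT replicates 1, 2, 3 and 6 (169 to 318 counts). The groups overlapped, with KO replicate 5 above WT replicates 2 and 6. Means were 3.47 ± 1.24 CPM in KO and 5.03 ± 1.40 CPM in WT, and the limma log2 difference was −0.56 ± 0.290 (SE; 95% interval −1.18 to 0.07; adjusted p 0.733), with an exact permutation p of 0.229. Leaving out 1 library moved the log2 difference to between −0.34 (without KO replicate 4) and −0.81 (without KO replicate 5).

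Of the adrenergic receptor genes on the list, Adra2b had the highest mean level per length in proximal tubule and Adra1a came next. Adra2b, which encodes the Gi-coupled alpha-2B receptor, had 9.57 CPM per kilobase in KO and 9.50 in WT proximal tubule, where Adra1a had 0.398 and 0.576. The other alpha-1 receptor genes were near or at 0 there, with 14 counts in KO and 1 in WT for Adra1b over all proximal libraries and 0 in both for Adra1d. Of 15 genes of adrenergic receptors and their Gq signalling, 8 passed the filter and 0 were called between KO and WT, 7 lying above 0 with a median of 0.14. Among those with the smallest p were Prkca, a protein kinase C (0.50 ± 0.286), Plcb4, a phospholipase C (0.51 ± 0.713), and Gna11, a Gq-family subunit (0.13 ± 0.197), with limma adjusted p from 0.749 to 0.913.

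Nox4, the oxidase, had 188, 253 and 155 CPM in KO proximal replicates 4, 5 and 7, against 375, 216, 235 and 183 CPM in WT replicates 1, 2, 3 and 6. WT replicate 1 stood above all other libraries, and the remaining WT libraries lay within the KO range. Means of 199 ± 49.9 CPM in KO and 252 ± 84.6 CPM in WT gave a limma log2 difference of −0.33 ± 0.230 (SE; 95% interval −0.83 to 0.16; adjusted p 0.795), with an exact permutation p of 0.4. Without WT replicate 1 the log2 difference was −0.13, without KO replicate 7 −0.18, and without KO replicate 5 −0.52.

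Cyba, the membrane partner of Nox4, averaged 26.6 ± 8.69 CPM in KO and 33.1 ± 4.29 CPM in WT proximal tubule, a limma log2 difference of −0.38 ± 0.222 (adjusted p 0.759). Per kilobase of exon, Cyba lay at 25.6 CPM in KO and 31.8 in WT, beside 23.5 and 29.8 for Nox4. The oxidase Nox1 had 0 counts in KO and 1 count in WT over all proximal libraries. Of 13 genes of the oxidase family and its partners, 4 passed the filter and 0 were called: Cyba, Cybb, an oxidase of phagocytes (2.63 ± 1.26, on 43 counts in KO and 17 in WT), Rac1, a small GTPase (0.17 ± 0.143), and Poldip2, a partner of Nox4 (−0.11 ± 0.167). Their median was 0.03. The 5 leukocyte genes summed to 0.447 to 7.22 CPM in KO and 1.16 to 2.29 CPM in WT proximal libraries, with Lyz2 at 0 in WT, and their part in the Cybb value was not tested.

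Taken as a set, 0 of the 4 genes were called between KO and WT proximal tubule, where limma called 22 of 13229 genes (0.166%). All 4 log2 differences lay below 0, as did 51.6% of all genes tested, and the median was −0.44 against −0.01 for all genes. Spp2 alone had groups that did not overlap, with KO lower, a pattern seen in 3.54% of genes, and Spp2 alone had an unadjusted p under 0.05 with KO lower, as 3.17% of genes did. The authors' deposited table gives log2 fold changes of −0.30 for Slc5a12, −0.55 for Adra1a and −0.36 for Nox4, with adjusted p of 0.894, 0.795 and 0.914. Proximal libraries carry numbers of separate series, and in the 2 KO and 3 WT libraries numbered from 101009 the limma log2 differences were −1.18 for Spp2, −0.37 for Slc5a12, −0.62 for Adra1a and −0.30 for Nox4 (adjusted p 0.0928 to 0.729). The other series holds 1 library of each genotype.

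Other early proximal genes were read the same way. This list and that of straight proximal genes below were chosen with earlier results of these data known. Of 12 other early proximal genes, 0 were called, 10 lay below 0 and 6 had an unadjusted p under 0.05 with KO lower, with a median of −0.35. The smallest p values were those of Slc34a3, a sodium-phosphate cotransporter (−1.24 ± 0.265), Slc5a2, the glucose transporter SGLT2 (−0.81 ± 0.230), Slc7a7, an amino acid transporter subunit (−0.58 ± 0.172), and Slc4a4, the basolateral bicarbonate carrier (−0.42 ± 0.140), with limma adjusted p of 0.107, 0.296, 0.326 and 0.456. Slc34a3 had 7.56 ± 2.67 CPM in KO and 17.1 ± 3.86 CPM in WT. Lrp2, the endocytic receptor megalin, and Slc9a3, a sodium-proton exchanger, had log2 differences of 0.03 and 0.09.

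Genes of the straight proximal tubule lay the other way. Of 15, 14 passed the filter, 13 had log2 differences above 0 and 2 rose in KO by limma, Atp11a, a phospholipid flippase (1.62 ± 0.246, adjusted p 0.0269), and Acy3, an aminoacylase (1.12 ± 0.190, adjusted p 0.0381), with a median of 1.38. The call of Atp11a was lost without KO replicates 4, 5 or 7 or WT replicate 1, and that of Acy3 without any 1 proximal library (adjusted p up to 0.0971 and 0.162), while both stayed above 0. Their summed level was 2951, 2255 and 3055 CPM in KO replicates 4, 5 and 7, against 853, 1521, 724 and 1921 CPM in WT replicates 1, 2, 3 and 6, and no gene of the list was at 0 throughout either group. Within WT, Spp2 was highest in replicate 3, then 1, 2 and 6, the reverse of the order of the straight-tubule sum. Within KO that reverse order did not hold, since replicate 5 had the lowest value of both. The part of straight-tubule RNA in the Spp2 difference was not tested.

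**Figure D2:**
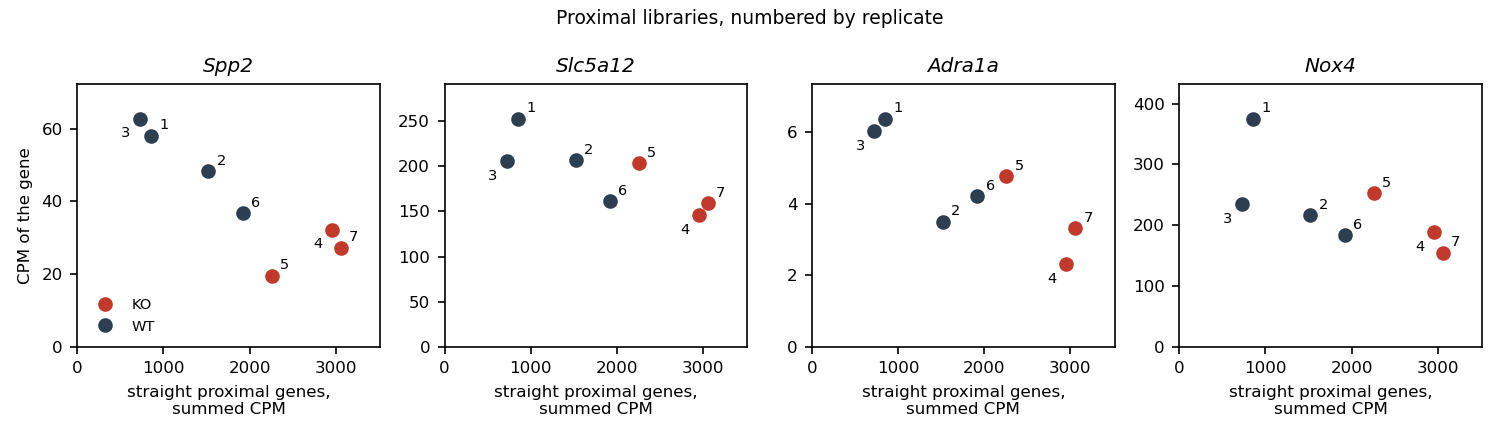
CPM of each gene (vertical axis) against the summed CPM of 15 straight proximal genes (horizontal axis) in the 3 KO and 4 WT proximal libraries, numbered by replicate. The KO libraries lie to the right (2255 to 3055 against 724 to 1921 CPM), and KO replicate 5 is the lowest library for Spp2 but not for the other genes.

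Endothelial genes also lay above 0 in KO, 8 of 8 with 0 called and a median of 0.61. Their sum was 18.7 to 32.9 CPM in KO and 10.8 to 22.2 CPM in WT proximal libraries, with none of the 8 at 0 in a group, and their part in the differences of the 4 genes was not tested. Hnf4a, a transcription factor of the proximal tubule, averaged 94.3 ± 16.6 CPM in KO and 94.4 ± 10.2 CPM in WT. Its limma log2 difference was −0.02 and that of its relative Hnf4g 0.56, and neither was called.

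**Figure D3:**
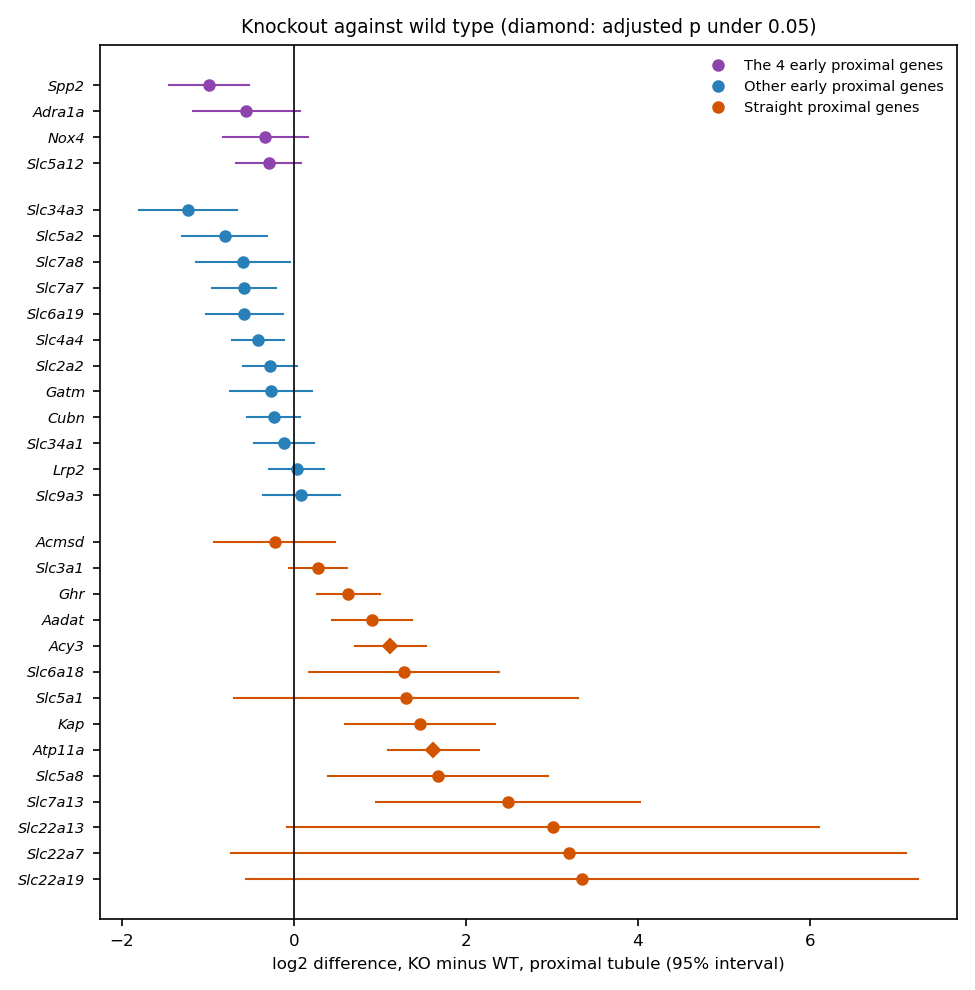
limma log2 difference of KO minus WT in proximal tubule (horizontal axis) with its 95% interval for the 4 genes, 12 other early proximal genes and the 14 straight proximal genes past the filter. The 4 genes lie between −0.98 and −0.29, and the diamonds mark Atp11a and Acy3, the genes of these lists that passed the threshold.

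Whether the genes moved as a unit from library to library was read in their ratios, a comparison chosen after the values were seen. Spp2 had 22.0, 9.60 and 17.1 counts per 100 counts of Slc5a12 in KO proximal replicates 4, 5 and 7, against 23.0, 23.4, 30.5 and 22.7 in WT replicates 1, 2, 3 and 6. These ratios did not overlap between the genotypes, though KO replicate 4 came within a count per 100 of the lowest WT library. The exact permutation p was 0.0571, or 0.171 adjusted over 3 ratios. The ratios of Spp2 to Nox4 and of Spp2 to Adra1a overlapped (exact permutation p = 0.171 and 0.457). With 3 KO and 4 WT libraries p cannot go below 0.0571, so no ratio could have passed 0.05 and these tests leave unanswered whether Spp2 and the other genes differed unequally.

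Slc5a12, Adra1a and Nox4 were correlated with one another over the 7 proximal libraries, KO and WT pooled since the genotypes overlap in each of them, and no pair had an adjusted p under 0.05. For Slc5a12 and Nox4, Pearson's r of log2 CPM was 0.898 (exact permutation p = 0.00833, 0.05 adjusted over 6 pairs) and Spearman's rho 0.75 (exact p = 0.0663), and r was 0.926 without the 2 libraries farthest from the median of Slc5a12. Slc5a12 and Adra1a had r = 0.816 (exact p = 0.0244, adjusted 0.0732) and rho = 0.786 (exact p = 0.048), and r was 0.568 without 2 libraries, so that relation rests in part on them. Adra1a and Nox4 had r = 0.732 (exact p = 0.0571, adjusted 0.114) and rho = 0.786, with r = 0.684 without 2 libraries. Each of these genes had a lower mean in KO, and this offset between the genotypes was not removed from the pooled r. Both values of a pair come from the same library and share its makeup, and the library number series of 5 and 2 libraries are too small for values of their own. For Spp2 no pooled r is given, because its genotype groups stand apart and neither holds 6 libraries.

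The genes whose log2 CPM followed Slc5a12, Nox4 and Adra1a most closely over the 7 proximal libraries, among 4124 or 4125 genes averaging at least 5 CPM, were then listed, and none are given for Spp2, whose genotype groups stand apart. Slc5a12 was followed by Gldc, of the glycine cleavage system (Pearson's r = 0.933), Zbed3 (0.931) and the receptor phosphatase gene Ptprd (0.930). Nox4 was followed by Txndc9 (0.954), Ptprd (0.937) and Gc, the vitamin D-binding protein gene (0.929), so Ptprd appeared beside both. Adra1a was followed by the deubiquitinase gene Usp19 (0.966), Ank3, which encodes ankyrin-G (0.964), and Irf2bp2 (0.957). With 7 libraries and so many genes searched, these values are a description of likeness and nothing more.

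Between segments, all 4 genes were higher in proximal than in distal convoluted tubule in both genotypes. In KO the limma log2 differences (proximal minus distal) were 9.79 for Spp2, 12.4 for Slc5a12, 4.75 for Adra1a and 10.2 for Nox4, with adjusted p from 2.17e-08 to 1.82e-05. In WT they were 10.9, 11.4, 5.53 and 9.92, with adjusted p from 1.26e-08 to 7.6e-06. limma called 40.6% of 13834 genes between the segments in KO, 20.4% with proximal higher, and 48.7% of 13616 in WT, 23.6% with proximal higher. The 4 genes passed the filter through their proximal level and were picked as proximal genes, so their count is a check of the labels. The fitted values rest on few distal counts and depend on the prior count.

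Distal counts show how close to 0 these genes were. Spp2 had 1, 0, 4 and 0 counts in KO distal replicates 5 to 8 and 0, 8, 0 and 0 in WT distal replicates 1 to 4. Slc5a12 had 0, 0, 6 and 1 counts in KO and 2, 12, 0 and 4 in WT. Adra1a had 3, 2, 9 and 6 counts in KO and 7, 12, 2 and 1 in WT. Nox4, like Adra1a present in every distal library, had 1, 14, 20 and 4 counts in KO and 18, 11, 1 and 28 in WT. KO replicate 7 was the highest KO distal library for each of the 4 genes, and WT replicate 2 the highest WT distal library for all but Nox4. A count of 0 allows for up to 3 counts by counting error alone; the reads carry no molecular identifiers and are not independent.

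Adra1a had the largest distal share of the 4 genes by counts, and the test over libraries could not pass 0.05 after adjustment at these group sizes. Its distal mean was 3.60% of its proximal mean in KO and 2.93% in WT, with 95% Poisson intervals of the distal counts of 2.20 to 5.55% and 1.83 to 4.43%. Spp2 stood at 0.119% in KO and 0.0888% in WT, Slc5a12 at 0.0254% and 0.0518%, and Nox4 at 0.129% and 0.148%, and none of their intervals reached above 0.279%. These intervals hold counting error alone, and leave out the spread among libraries and the error of the proximal mean. Over libraries, the ratio of Adra1a to each of the other genes was higher in distal than in proximal libraries without overlap, in 6 of 6 comparisons chosen after the values were seen. These ratios were taken as log2 of counts plus 0.5, which gives a value to libraries with 0 counts of the other gene. At counts this low the added 0.5 also draws the distal ratios toward equal counts. Against Slc5a12 in both genotypes and Nox4 in KO, the ranges would have stayed apart even with no distal count of Adra1a. In those comparisons the lack of overlap was set in advance and tells nothing of Adra1a. Spp2 was at 0 in 2 of 4 KO and 3 of 4 WT distal libraries. Slc5a12 was at 0 in 2 of 4 KO and 1 of 4 WT, and Nox4 in none. The exact permutation p was 0.0571 in each KO comparison and 0.0286 in each WT comparison, the smallest these group sizes allow, and 0.0571 for all 6 after adjustment.

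In the distal libraries 8 endothelial genes summed to 38.4 to 43.1 CPM in KO and 45.3 to 59.1 CPM in WT, above the proximal libraries, and 7 smooth muscle and stromal genes to 0.892 to 2.34 CPM in KO and 1.06 to 5.65 CPM in WT. No gene of either list was at 0 throughout a distal group. Their part in the distal Adra1a counts was not tested, nor was that of the thick ascending limb, connecting tubule or intercalated cell genes. Among the 12 other early proximal genes, Slc34a3 had 0 counts in all distal libraries, Gatm, of creatine synthesis, stood at 0.059% of its proximal level in KO and 0.0542% in WT, and the amino acid transporter gene Slc7a8 at 31.5% and 25.4%. Their median was 0.161% in KO and 0.15% in WT.

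**Figure D4:**
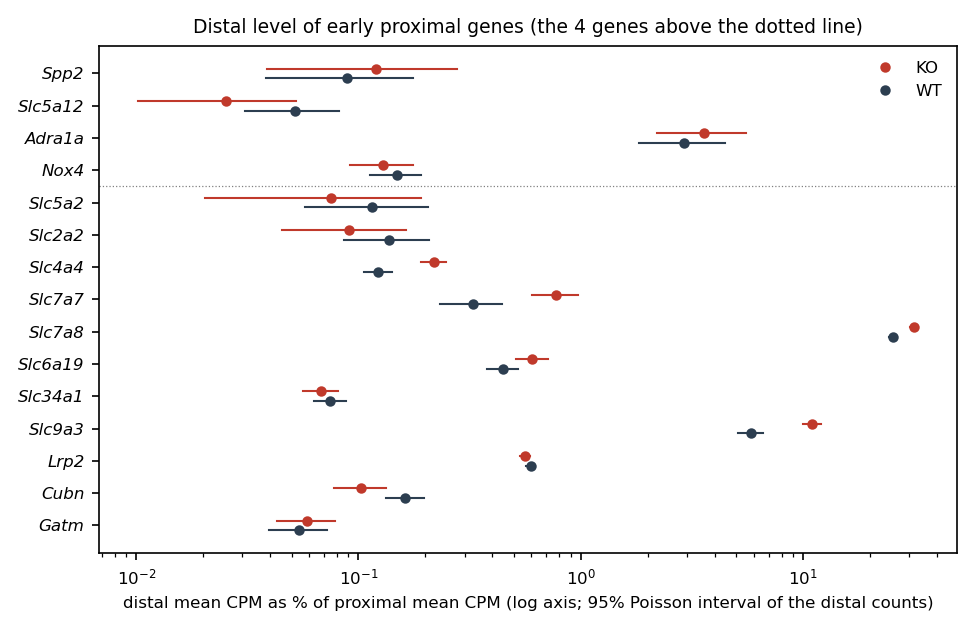
Mean distal CPM as a percentage of mean proximal CPM (horizontal axis, log scale) for the 4 genes and 11 of the 12 other early proximal genes, with KO above WT and 95% Poisson intervals of the distal counts; Slc34a3 had no distal count and is left out. Adra1a lies at 3.60% in KO and 2.93% in WT, and the other 3 genes below 0.15%.

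The genes around them in their pathways split between the segments. Cyba was higher in proximal tubule, as Nox4 was, with a log2 difference of 6.02 in KO and 6.01 in WT, and was the 1 gene called in either direction of the 4 oxidase genes tested in KO and the 3 tested in WT. Adra2b was higher in proximal tubule (9.80 in KO and 9.31 in WT), while the beta-1 receptor gene Adrb1 was lower there (−6.86 and −7.03). Adrb1 had 0 counts in all proximal libraries, and Adra2b had 6 counts in KO and 12 in WT distal libraries. The size of these differences thus depends on the prior count. Plcb1 was higher in proximal tubule (2.96 and 3.02) and Plcb4 higher in distal tubule (−4.10 and −4.45). Of the adrenergic list 2 genes were called higher and 3 lower in proximal tubule in KO, and 2 and 5 in WT, of 10 tested in each.

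Among lactate carriers, Slc5a8 (10.3 in KO and 8.08 in WT), Slc16a1 (8.15 and 7.85) and Slc16a4 (6.07 and 5.67) were higher in proximal tubule, as Slc5a12 was. Slc16a7, a further proton-coupled carrier, was the distal one, at 0.0703 ± 0.0612 CPM in KO proximal tubule and 397 ± 21.0 CPM in KO distal tubule, and at 0.324 ± 0.188 CPM in WT proximal tubule and 334 ± 20.7 CPM in WT distal tubule (SD). Of the cystatin-fold and bone morphogenetic protein list, 2 of 9 genes tested were called higher in proximal tubule in KO, Bmp4 (3.14) and Hrg (5.06), and 1 of 8 in WT, Bmp4 (3.38), while 4 and 5 were called lower. Kng1 and Kng2, the kininogen genes, were among those lower in proximal tubule (−9.78 and −9.63 in KO, −9.51 and −9.37 in WT). Kng1 averaged 0 CPM in KO and 0.0171 CPM in WT proximal tubule, so the size of its differences depends on the prior count. The transcription factor genes Hnf4a (10.6 in KO and 8.61 in WT) and Hnf4g (7.64 and 7.44) were called higher in proximal tubule.

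Between KO and WT distal tubule only Nox4 passed the filter, at 0.256 ± 0.231 CPM in KO and 0.374 ± 0.287 CPM in WT. Its limma log2 difference was −0.56 ± 0.954 (adjusted p 0.924), and its groups overlapped. With 1 library left out it ran from −1.43 without WT replicate 3 to 0.11 without KO replicate 5, so 1 library turned its direction. limma called 0 of 12968 genes (0%), and 924 (7.13%) had an unadjusted p under 0.05. The exact permutation tests, for which 0.0286 is the smallest p possible, gave p = 1 for Spp2, 0.457 for Slc5a12, 0.857 for Adra1a and 0.629 for Nox4. No difference between the genotypes was detected at these counts.

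The test of whether KO minus WT differed between the segments called 0 of 15279 genes by limma (0%), with 849 (5.56%) at an unadjusted p under 0.05. For the 4 genes the log2 difference of the differences was −1.13 ± 1.58 for Spp2, 0.93 ± 1.33 for Slc5a12, −0.81 ± 1.02 for Adra1a and 0.23 ± 1.19 for Nox4 (SE), each with an adjusted p of 0.994. With 1 library left out they ran from −2.11 to −0.51 for Spp2 (without distal WT replicate 2 and distal KO replicate 7), from 0.28 to 1.80 for Slc5a12 (without distal WT replicates 2 and 3), from −1.32 to −0.16 for Adra1a (without distal WT replicates 2 and 4) and from −0.45 to 1.11 for Nox4 (without distal KO replicate 5 and distal WT replicate 3). The distal side of these values rests on few counts, and the proximal difference of Spp2 is not shown to be absent from distal tubule.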

How the data were processed

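RNA from dissected mouse kidney tubules was sequenced in 15 libraries, made with Nextera XT per the labels' protocols. The submitters' processing notes name CASAVA 1.8, STAR 2.5, DESeq2 1.24.0 and the build GRCm38. Which program counted the reads, and whether by strand, is not given in the sources used here. The authors deposited whole-number counts per gene; since the layout of that deposited file was not readable as counts by the format check, its unit stands as other. The authors also deposited tables of fold changes and p-values, used only where named; Cldn10 (−12.2 in the proximal table) gave their sign, KO over WT. Because of the recorded unit, no count model was fitted.

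Scale factors came from the trimmed mean of M values method, which cut 30% of the log ratios and 5% of the intensities. A gene stayed in a fit if it reached about 10 counts, at typical depth, in at least the number of libraries of the smaller group, and 15 counts in total. limma 3.58.1 in R 4.3.3 was run with voom weights (prior count 0.5), comparing only the groups named, with an adjusted p under 0.05 called. Printed CPM come from 1 scaling of all 15 libraries. Exact two-sided permutation tests and correlations on log2(CPM + 0.5), with ratios of genes as log2 of counts plus 0.5, used SciPy 1.17.1, and CPM per kilobase used GENCODE M21 exon lengths. The code was tested on simulated data.

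The 4 genes, the lists and the ratios were chosen with earlier results of these data known. Of each list, called genes were named, else up to 4 by smallest p, some of which are not reported here; Slc5a8, Adra1b, Adra1d, Nox1, Lrp2, Slc9a3, Gatm, Slc7a8 and single genes called between segments were picked in addition after their values were seen. Alternatives tried were other scalings, filters and weights, 1 fit of all libraries, library number series, each library left out, and a replicate block.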

Additional observations from a re-analysis of the deposited data

Results flagged for a closer look

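Spp2 in WT distal replicate 2 stood far from its group, at 0.183 CPM (8 counts) where the other 3 WT distal libraries had 0 counts. Slc5a12 in KO distal replicate 7 did so too, at 0.149 CPM (6 counts), where the other KO distal libraries had 0 or 1 counts. A gap of this relative size was looked for in 12 groups of 4 libraries and was found in 2. Chance gives about 1 in 20 for continuous values, a rate that does not hold for counts this near 0, where 1 nonzero count beside 3 libraries at 0 always makes such a gap. The same libraries had the highest summed level of the 4 genes in their groups, 0.970 CPM in KO replicate 7 and 0.984 CPM in WT replicate 2. The sum of the 12 other early proximal genes in KO replicate 7 was highest of its group (33.2 CPM, against 25.1 to 31.4 CPM). That in WT replicate 2 was the lowest of its group (28.3 CPM, against 29.3 to 37.9 CPM). By group means, Slc7a8 and Lrp2 made up most of this sum in distal tubule in both genotypes. Its order of libraries therefore cannot show how the early proximal genes near 0 ranked there.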

How the results depend on the processing

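In proximal tubule the log2 difference of KO minus WT stayed below 0 for each of the 4 genes under all 17 alternatives. Spp2 ran from −1.18 to −0.79 (limma adjusted p 0.0113 to 0.397) and passed the threshold with no filter (−1.01) and in 1 fit of all 15 libraries (−0.97). The 22 genes called became 80 with no filter, 36 with the stricter filter, 40 with quality weights, 123 in the fit of all libraries and 2 to 18 with 1 library left out (4, 6 and 10 without KO replicates 4, 5 and 7, and 2, 7 and 9 without WT replicates 1, 2 and 3); the cause was not tested. In distal tubule the 0 calls became 4 with no filter, and Nox4 ran from −1.43 to 0.11 with 1 library left out, above 0 without KO replicate 5. For the difference between segments, the 0 calls became 1 with no filter, 11 and 5 with limma-trend (prior counts 0.5 and 3) and 0 to 1 with 1 library left out. Nox4 ran there from −0.45 to 1.11 with 1 library left out, at −0.45 and −0.03 without distal KO replicates 5 and 8 and at −0.12 and −0.29 without distal WT replicates 1 and 4. Libraries of both segments share some replicate numbers, but same-numbered libraries did not deviate together (r from −0.12 to 0.02), and a replicate block moved the calls between segments from 5621 to 3545 in KO and from 6631 to 5830 in WT, all 4 genes staying called. Under scaling to nuclear protein-coding counts the median log2 difference of all genes between segments was −0.43 in KO and −0.29 in WT, against −0.0395 and −0.0229 under the reported scaling, and that of the difference of differences was −0.11, against −0.0025. Distal counts of 0 to 28 limit every distal value.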
